A study of Mus musculus with 9 samples.

Results

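The transcripts of 10 target genes of the transcription factor p53 (Cdkn1a, Phlda3, Zmat3, Ccng1, Bax, Tnfrsf10b, Mdm2, Trp53inp1, Eda2r and Gadd45a) were followed in mouse CD8+ T cells, matched by gene symbol among the 55421 genes of the deposited count table. RNA was sequenced after ribosomal depletion in 9 libraries. The T cells of every group were taken from spleen and had the genotype Pmel Ly5.1, that is, a transgenic T-cell receptor together with a congenic marker. MitoPositive and MitoNegative cells had shared a culture for 36 h with DM5, an immortalised mesenchymal stromal cell line from BL6 bone marrow with mitochondria labelled by the red fluorescent protein DsRed, and were then sorted as DsRed+ and DsRed- respectively. Monoculture cells had no stromal partner, and no stromal cells without labelled mitochondria were compared. Each group held 3 libraries, lettered B, C and D, and per-library values below are in that order. All titles carry a time of 0 h that the labels do not explain, and they do not say whether the letters are separate animals or cultures, so a p-value here measures only spread among these samples, and that spread may be technical. All 10 genes were among the 15711 that passed the filter on low counts. They had been chosen by their CPM (a gene's count relative to its library's normalised size) in these same libraries, as a series graded from monoculture over MitoNegative to MitoPositive. Their levels, folds and standard errors (SE) are therefore given as a description, and nothing is read from tests of them.

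In a cell at rest p53 is made and degraded continuously, because the ubiquitin ligase Mdm2, itself a p53 target, marks it for destruction. DNA damage and other stresses break this loop, and p53 then binds sites near its target genes and switches on genes for cell cycle arrest, cell death, DNA repair and its own restraint. In T cells the pathway is known for limiting division after damage and for setting sensitivity to death signals.

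The binding element of p53 is a pair of 10-letter units, here called p53 decamers, separated by a short spacer or none. RefSeq promoter windows of 300 bases (250 before to 50 after the annotated start, GRCm38.p6) were found for 7 of the 10 genes, in 8 windows, and not matched for Zmat3, Tnfrsf10b and Trp53inp1. Of these windows 5 of 8 (62.5%) held at least a single exact decamer, against 8.36% of 32851 windows of all genes and 17.1% of 82 windows of other p53 targets listed below. A paired site with at most 2 mismatches and a spacer of at most 1 base, a search added after the windows had been seen, was found for Bax, Ccng1 and Cdkn1a (37.5% of windows, against 1.78% of all and 7.32% of those of the other targets). The 5 stretches with a match are shown because 4 of their genes had the graded order described next and Gadd45a did not. They are written 5′ to 3′ on the gene's strand, and capitals mark decamers and paired sites. The Cdkn1a stretch is chr17:29090729-29090978 on the plus strand, and the others lie on minus strands, at chr11:40755437-40755496 for Ccng1, chr10:117710914-117710973 for Mdm2, chr7:45467069-45467128 for Bax and chr6:67037418-67037477 for Gadd45a.
Cdkn1a: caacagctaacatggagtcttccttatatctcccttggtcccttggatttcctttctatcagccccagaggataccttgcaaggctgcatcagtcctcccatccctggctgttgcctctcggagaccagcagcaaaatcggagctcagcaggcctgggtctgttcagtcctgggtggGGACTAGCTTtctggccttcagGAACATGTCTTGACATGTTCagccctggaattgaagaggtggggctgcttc
Ccng1: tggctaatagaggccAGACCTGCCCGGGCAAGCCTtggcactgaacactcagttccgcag
Mdm2: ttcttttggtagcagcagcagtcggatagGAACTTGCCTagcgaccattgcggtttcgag
Bax: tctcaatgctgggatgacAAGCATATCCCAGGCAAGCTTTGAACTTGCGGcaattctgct
Gadd45a: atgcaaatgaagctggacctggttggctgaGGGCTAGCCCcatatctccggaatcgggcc

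The paired site of Cdkn1a spans bases -51 to -32 from the annotated start used for the stretch above. It has no spacer and holds 1 mismatch. An exact decamer stands upstream of it, at -73 to -64. The other Cdkn1a window, at chr17:29093519-29093818, held no decamer and no paired site. The paired site of Ccng1 spans -195 to -176, also with 1 mismatch. In Bax 2 overlapping paired sites cover -212 to -181, with 1 and 2 mismatches. Mdm2 held a decamer at -186 to -177 and Gadd45a at -40 to -31, each without a partner in the window. Of the core promoter motifs searched on both strands, TATAAA was found in the Eda2r window only (12.5% of the 8 windows, 13.6% of all). GGGCGG was in 6 of 8 windows (75%, against 35.7% of all and 73.2% of those of the other targets) and CCAAT in 4 of 8 (50%, against 37.4% and 46.3%). A match is a string of letters, not evidence of binding, and a window without one says nothing of sites elsewhere.

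Cdkn1a, Phlda3, Zmat3, Ccng1, Bax, Tnfrsf10b, Mdm2 and Eda2r had the order monoculture below MitoNegative below MitoPositive in each of the 3 letters. These are 8 of the 10 genes, and 9.9% of all genes tested had that order. MitoNegative was above monoculture in each letter for 9 of 10 (32.1% of all genes) and MitoPositive above MitoNegative for 8 of 10 (25.2%). It is the pattern for which the genes were chosen, so nothing is read from these counts. Trp53inp1 was level across the groups, and Gadd45a was highest in MitoNegative cells. In RNA from many cells, fewer cells that make a transcript and less of it per cell cannot be told apart. The plot of CPM by library shows each gene on its own axis.

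**Figure D1:**
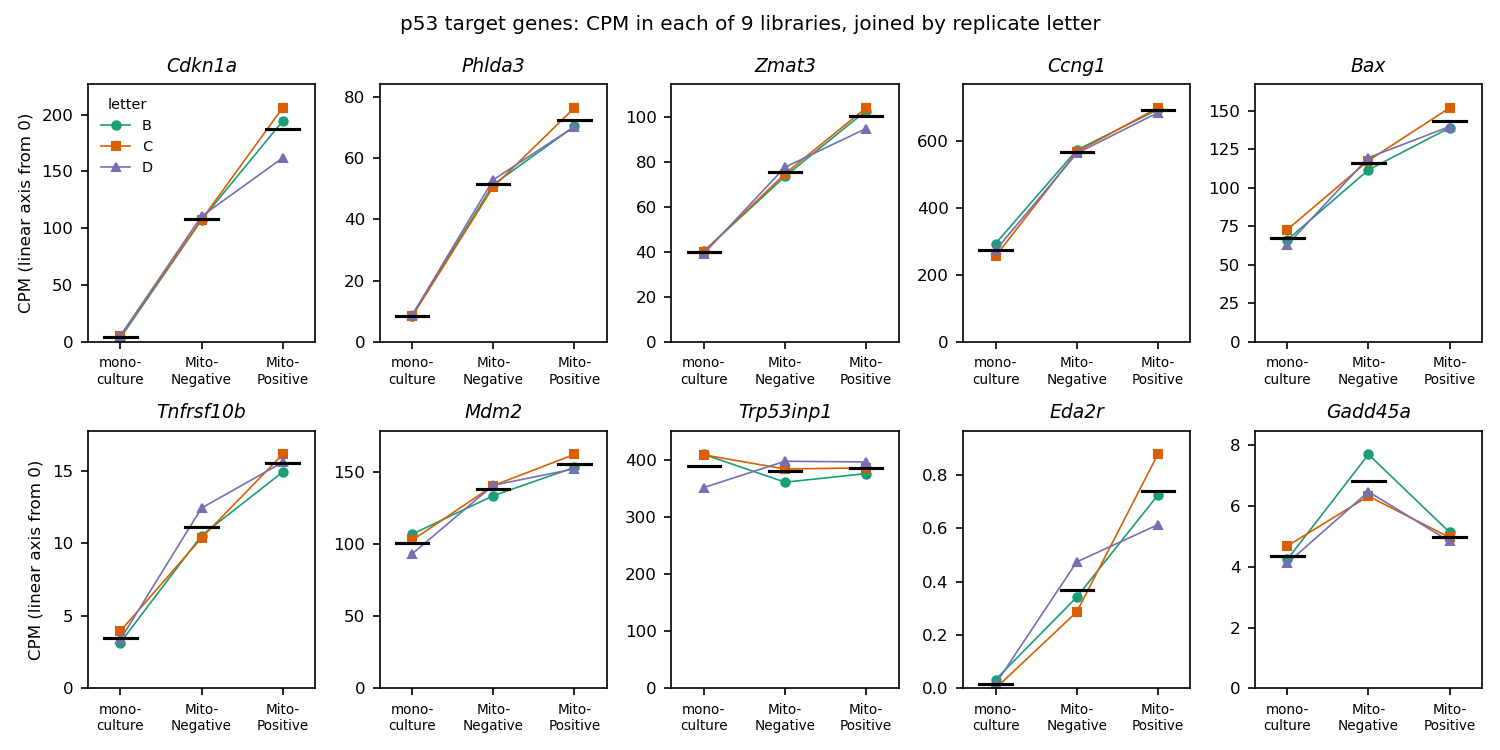
CPM (linear axis from 0, a separate scale for each gene) of the 10 p53 target genes in monoculture, MitoNegative and MitoPositive libraries, with lines joining libraries of the same letter and black bars at the mean of 3. The panels of 8 genes climb from left to right in every letter, Trp53inp1 stays near 390.0 CPM and Gadd45a peaks in the middle group at 6.84 CPM.

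Cdkn1a (ENSMUSG00000023067.14, chr17:29090976-29100727, plus strand) encodes p21, an inhibitor of cyclin-dependent kinases and the best known arrest gene of the pathway. It stood at 3.52, 5.06 and 5.37 CPM in monoculture, at 107.4, 107.5 and 110.5 CPM in MitoNegative cells and at 194, 206 and 162 CPM in MitoPositive cells. No groups overlapped; the MitoNegative libraries were nearly equal, while among the MitoPositive ones D was the lowest and C the highest. The mean was 4.65 ± 0.986 CPM (SD, n = 3) in monoculture, against 108.5 ± 1.78 CPM for MitoNegative and 187 ± 22.9 CPM for MitoPositive. MitoNegative exceeded monoculture 23.3-fold (log2 difference 4.54 ± 0.147, SE), and MitoPositive exceeded MitoNegative 1.73-fold (0.79 ± 0.121). On the log2 scale 85.2% of the distance from monoculture to MitoPositive was already present in MitoNegative cells, and on the CPM scale 56.9%. An antisense gene overlaps Cdkn1a, and it held 17 counts over all libraries.

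Gadd45a (ENSMUSG00000036390.8, chr6:67035096-67037457, minus strand) encodes a small stress protein that binds p21 and the replication clamp and feeds into stress kinases. Its levels were 4.24, 4.69 and 4.12 CPM in monoculture, 7.70, 6.33 and 6.48 CPM in MitoNegative cells and 5.14, 4.97 and 4.84 CPM in MitoPositive cells. MitoNegative was the highest group in each letter and overlapped neither of the others. It exceeded monoculture 1.57-fold (0.65 ± 0.12) and MitoPositive 1.37-fold, a log2 difference of MitoPositive from MitoNegative of -0.46 ± 0.119. Groups not overlapping in that direction, MitoNegative above MitoPositive, made up 9.55% of all genes. MitoPositive also lay above monoculture without overlap, by 0.20 ± 0.121, an SE wide against the difference. An antisense transcript over Gadd45a held 166 counts in all libraries together, and since the strandedness of counting is not given in the sources used here, reads of the pair cannot be told apart.

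Ccng1 (ENSMUSG00000020326.7, chr11:40748552-40755311, minus strand) encodes cyclin G1, which brings a phosphatase to Mdm2 and belongs to both the arrest and the restraint side of the pathway. Its levels were 294, 256 and 273 CPM in monoculture, 572, 567 and 563 CPM in MitoNegative cells and 694, 699 and 684 CPM in MitoPositive cells. The co-cultured groups were tight and far apart, at 568 ± 4.8 and 692 ± 7.23 CPM (SD). The folds were 2.07 for MitoNegative over monoculture (1.05 ± 0.065) and 1.22 for MitoPositive over MitoNegative (0.29 ± 0.0643). Its ratio of MitoPositive to MitoNegative was nearly the same in each letter, at 1.21, 1.23 and 1.22.

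Mdm2 (ENSMUSG00000020184.15, chr10:117688875-117710758, minus strand), the ubiquitin ligase that degrades p53, took the smallest steps of the ordered genes. It was at 107, 103 and 93.1 CPM in monoculture, at 133, 140 and 141 CPM in MitoNegative cells and at 153, 162 and 152 CPM in MitoPositive cells. The groups did not overlap, yet the step from MitoNegative (138 ± 4.12 CPM) to MitoPositive (156 ± 5.52 CPM) was 1.13-fold, a log2 difference of 0.17 ± 0.0619. MitoNegative exceeded monoculture 1.37-fold (0.45 ± 0.0621).

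Bax (ENSMUSG00000003873.11, chr7:45461697-45466898, minus strand) is a death gene whose protein opens the outer mitochondrial membrane. Bax was at 66.1, 72.8 and 63.0 CPM in monoculture, at 112, 118 and 119 CPM in MitoNegative cells and at 139, 152 and 140 CPM in MitoPositive cells. The steps were 1.73-fold (0.79 ± 0.0664) and then 1.23-fold (0.30 ± 0.0657), with no overlap between groups. A protein-coding read-through gene that overlaps Bax on the same strand held 0 counts.

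Tnfrsf10b (ENSMUSG00000022074.6, chr14:69767472-69784411, plus strand) encodes the receptor for the death ligand TRAIL. It was scarce, at 3.16, 3.96 and 3.38 CPM in monoculture, 10.5, 10.4 and 12.4 CPM in MitoNegative cells and 14.9, 16.2 and 15.6 CPM in MitoPositive cells. MitoNegative exceeded monoculture 3.18-fold (1.67 ± 0.114), and MitoPositive exceeded MitoNegative 1.40-fold (0.48 ± 0.107). Tnfsf10, the gene of its ligand, was at 56.8 ± 2.07, 59.7 ± 5.87 and 64.1 ± 5.52 CPM in monoculture, MitoNegative and MitoPositive cells and passed the test in no comparison by group. With the letter as a block Tnfsf10 was called higher in MitoPositive than in monoculture, as were 24.8% of all genes.

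Eda2r (ENSMUSG00000034457.10, chrX:97333840-97377216, minus strand) encodes another receptor of the same superfamily, which binds ectodysplasin A2. It was close to the limit of detection, with 2, 0 and 1 counts in monoculture, 23, 20 and 32 in MitoNegative cells and 55, 47 and 44 in MitoPositive cells. In CPM the co-cultured libraries read 0.342, 0.286 and 0.474, then 0.725, 0.878 and 0.614. The summed counts gave a depth-corrected ratio to monoculture of 22.2 for MitoNegative (95% exact interval 7.31 to 110.0) and 43.9 for MitoPositive (14.7 to 215.5), intervals that cover counting error only. Without monoculture B, which held 2 of the 3 counts, the fitted log2 differences went from 4.32 to 5.18 and from 5.32 to 6.17. MitoPositive exceeded MitoNegative 2.0-fold (1.0 ± 0.332), the widest SE of the 10 genes in this step.

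Phlda3 (ENSMUSG00000041801.5, chr1:135766119-135769136, plus strand) encodes a membrane lipid binding protein that keeps the survival kinase Akt off the membrane. Its libraries agreed closely, at 8.55, 8.35 and 8.73 CPM in monoculture, 51.3, 50.5 and 52.9 CPM in MitoNegative cells and 70.3, 76.3 and 70.2 CPM in MitoPositive cells. The step into co-culture was 6.03-fold (2.59 ± 0.0594) and the step between the sorted groups 1.40-fold (0.49 ± 0.054). Of its log2 distance from monoculture to MitoPositive, 84.2% lay in the step into co-culture, close to the share for Cdkn1a.

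Zmat3 (ENSMUSG00000027663.12, chr3:32334792-32366014, minus strand) encodes a zinc finger protein that binds RNA. Its levels were 40.4, 40.2 and 39.3 CPM in monoculture, 73.7, 74.8 and 77.7 CPM in MitoNegative cells and 103, 104 and 95 CPM in MitoPositive cells. MitoNegative exceeded monoculture 1.89-fold (0.92 ± 0.0548), and the log2 difference of MitoPositive from MitoNegative was 0.42 ± 0.0539. Zmat3 had the smallest share of its log2 distance in the step into co-culture among the ordered genes, at 68.7%.

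Trp53inp1 (ENSMUSG00000028211.11, chr4:11156431-11174379, plus strand), a stress protein of cell death and autophagy, did not follow the others. It read 410, 409 and 352 CPM in monoculture, 361, 384 and 398 CPM in MitoNegative cells and 376, 386 and 396 CPM in MitoPositive cells. All groups overlapped, and the log2 differences were -0.03 ± 0.0724, -0.01 ± 0.0724 and 0.02 ± 0.0724 for MitoNegative against monoculture, MitoPositive against monoculture and MitoPositive against MitoNegative. The sign of each of these turned under at least 1 other setting or with a library left out.

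**Figure D2:**
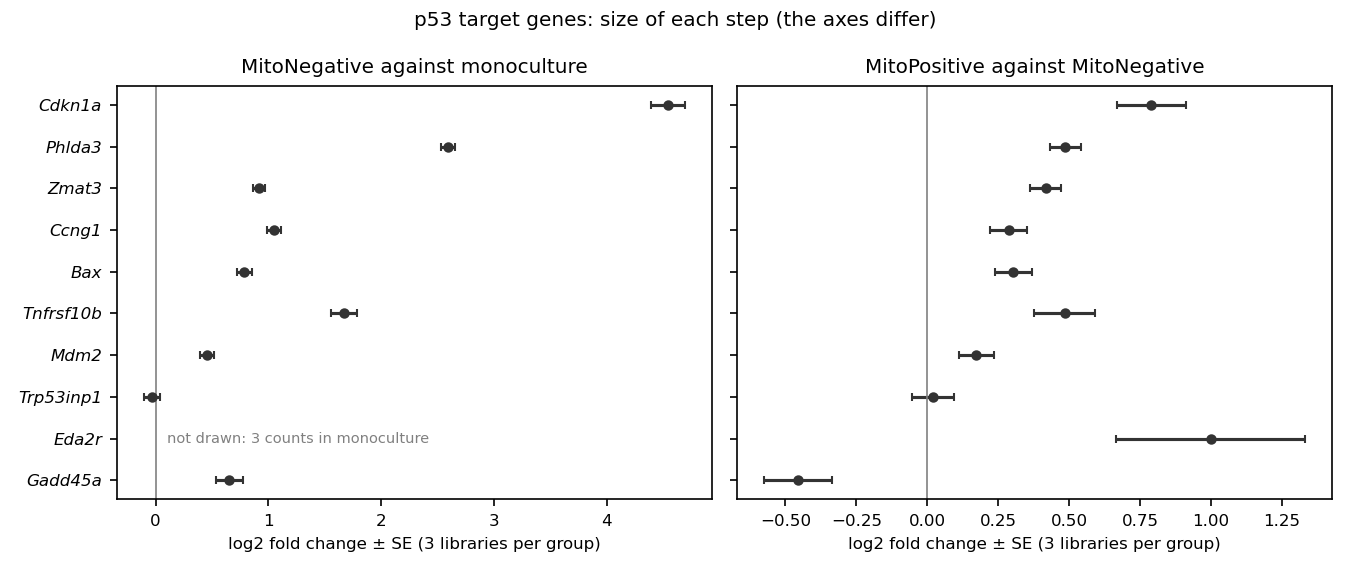
Log2 fold change with its SE (3 libraries per group) for the step from monoculture to MitoNegative, left, and from MitoNegative to MitoPositive, right, on axes of different length. Cdkn1a has the longest step on the left (4.54) among the genes drawn there, the error bars of Trp53inp1 cross 0 in both panels, and Gadd45a is the gene below 0 on the right; Eda2r is not drawn on the left because monoculture held 3 counts.

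By the test across all genes (edgeR's quasi-likelihood test, adjusted p under 0.05), 9 of the 10 were higher in MitoNegative than in monoculture. In that comparison 38.9% of all genes were called (20.6% higher, 18.3% lower). MitoPositive was higher than monoculture for 8 of 10, where 42.2% of all genes were called (22.3% higher, 19.9% lower). With the letter as a block both counts were the same, and 44.9% (23.5% higher, 21.5% lower) and 47.8% (24.8% higher, 23% lower) of all genes were called. Groups did not overlap for 9 of 10 from monoculture to MitoNegative (25.9% of all genes) and for 9 of 10 from monoculture to MitoPositive (27.3%), and for 8 of 10 MitoPositive lay above MitoNegative without overlap (10.5%). Between the sorted groups 3 of 10 were called, all higher in MitoPositive (Cdkn1a, Phlda3 and Zmat3), where 0.165% of genes were called (0.0891% higher, 0.0764% lower). With the letter as a block the count was 6, adding Ccng1, Bax and Tnfrsf10b, and 2.34% of all genes were called (1.26% higher, 1.08% lower). The count between the sorted groups was 0 without MitoNegative B, MitoPositive C or MitoNegative C, and 1 without MitoPositive B. Over all genes 0 were called higher and 1 lower in each run with a count of 0, and 2 and 1 without MitoPositive B. The rule used these contrasts, so nothing is read from these counts. The median log2 difference of the 10 genes was 0.36 between the sorted groups, 0.98 from monoculture to MitoNegative and 1.33 from monoculture to MitoPositive, and the medians of all genes were 0.00, 0.01 and 0.00. Both comparisons with monoculture share its libraries.

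Compared per kilobase of exon, which puts genes of different length on 1 scale, the order of the levels differed between groups. In monoculture Ccng1 led at 78.1 CPM per kb, followed by Trp53inp1 at 60.2, Bax at 42.7 and Mdm2 at 19.8, with Phlda3 at 5.48 and Cdkn1a at 1.31. In MitoPositive cells Ccng1 led at 197, followed by Bax at 91.0, Trp53inp1 at 59.6, Cdkn1a at 52.7 and Phlda3 at 46.4. Cdkn1a thus ranked below Zmat3 (3.50) and Gadd45a (2.47) in monoculture and above Mdm2 (30.6) in MitoPositive cells. In MitoNegative cells Cdkn1a at 30.5, Phlda3 at 33.1 and Mdm2 at 27.2 CPM per kb stood near each other. Eda2r was the lowest of the 10 in every group (0.00279, 0.0624 and 0.125 CPM per kb in monoculture, MitoNegative and MitoPositive). Tnfrsf10b was next in monoculture (0.642) and MitoNegative (2.04), and in MitoPositive it stood at 2.86 beside Gadd45a at 2.82.

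Within MitoPositive, letter C was the highest library for all 8 ordered genes and letter D the lowest for 6 of them. Within MitoNegative the picture differed: letter D was highest for 7 of the 8. The ratio of MitoPositive to MitoNegative was therefore lowest in letter D for 7 of the 8 genes and in letter B for 1 (Ccng1), and highest in letter C for 7 and in letter B for 1 (Zmat3). Its median over the 8 genes was 1.38 in letter B (1.15 to 2.12), 1.45 in letter C (1.15 to 3.06) and 1.24 in letter D (1.08 to 1.46). For Cdkn1a it was 1.81, 1.92 and 1.46, and for Eda2r 2.12, 3.06 and 1.29. Gadd45a had ratios of 0.667, 0.785 and 0.747, below 1 in each letter.

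**Figure D3:**
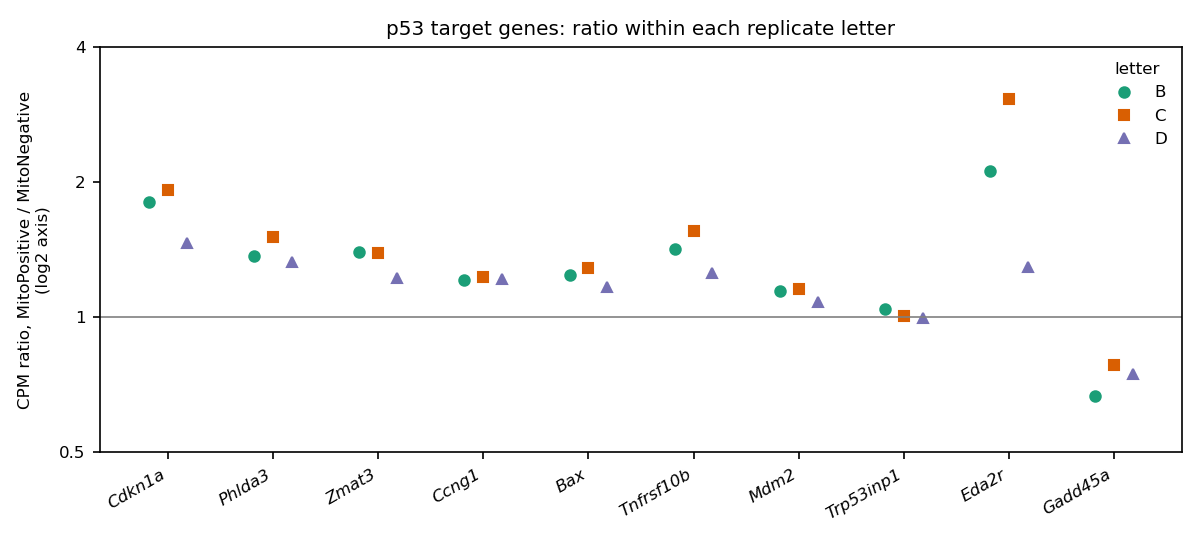
Ratio of MitoPositive to MitoNegative CPM within each letter (log2 axis) for the 10 genes, with a line at 1. The points of letter D lie lowest for 7 of the 8 ordered genes, every point of an ordered gene lies above 1, and the 3 points of Gadd45a lie between 0.667 and 0.785.

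Over the 9 libraries the log2 CPM of the 8 ordered genes ran closely together, with Pearson's r between 0.96 and 0.997 over 28 pairs (median 0.984). These points share the group difference by which the genes were chosen. After subtracting each group's mean, r ranged from -0.742 to 0.777 with a median of 0.264, and 21 of 28 pairs were above 0. Both are descriptions over the same 9 libraries.

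The genes whose log2 CPM over the 9 libraries was most like that of Cdkn1a, among 10608 other genes with a mean log2 CPM of at least 1, were Tnfsf4, Ccdc122, Lipo3 and Tnfrsf18 (each with r of 0.998) and Psrc1 (0.997). Tnfsf4, which encodes the ligand OX40L, was at 1.70 ± 0.458, 29.0 ± 2.45 and 51.5 ± 4.52 CPM in monoculture, MitoNegative and MitoPositive cells. Tnfrsf18, which encodes the co-stimulatory receptor GITR, was at 106 ± 9.31, 209 ± 3.48 and 241 ± 8.05 CPM. Within the 6 co-cultured libraries alone the r values were 0.97 for Tnfsf4, 0.946 for Ccdc122, 0.978 for Lipo3, 0.986 for Tnfrsf18 and 0.903 for Psrc1. Psrc1, which encodes a spindle protein, is itself a listed p53 target.

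A list of 69 further p53 targets, sorted by role, held members that rose into co-culture and, in smaller number, members that fell. Of the 65 that passed the filter (Rprm, Gdf15, Cmbl and Trp73 did not), 32 (49.2%) rose from monoculture to MitoNegative, 15 (23.1%) fell and 18 did not pass edgeR's test, against 20.6% and 18.3% of all genes. From monoculture to MitoPositive 33 (50.8%) rose, 13 (20%) fell and 19 did not pass, against 22.3% and 19.9% of all genes. Between the sorted groups 0 passed by group, and 16 of 65 had an unadjusted p under 0.05, against 10.5% of all genes. DESeq2 called 7 higher and 1 lower (2.66% of all genes called) and limma voom called 1 higher (0.21%). With the letter as a block 8 were called, all higher in MitoPositive, against 2.34% of all genes. The median log2 difference of the 65 was 0.19 from monoculture to MitoNegative, 0.19 to MitoPositive and 0.04 between the sorted groups. The order of the chosen genes, monoculture below MitoNegative below MitoPositive in each letter, was found in 24 of the 65 (36.9%), against the 9.9% of all genes given above. This list too was made with earlier results of these data known, so its shares are a description.

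Among 13 tested arrest genes 6 rose and 4 fell from monoculture to MitoNegative. So 76.9% were called, against 38.9% of all genes (20.6% higher, 18.3% lower). Trp53cor1, the long non-coding RNA lincRNA-p21, rose from 0.275 to 3.48 CPM (log2 3.65 ± 0.191, adjusted p = 2.4e-07). It lies on the minus strand at chr17:29057430-29079179, 11796 bases before Cdkn1a. Its MitoPositive libraries read 5.87, 6.07 and 5.69 CPM, above the MitoNegative ones at 2.96, 3.68 and 3.79 CPM without overlap. Plk2, a kinase of the centrosome cycle, rose by 2.85 ± 0.196 and Psrc1 by 2.56 ± 0.124, while Gtse1, which carries p53 out of the nucleus, rose by 1.23 ± 0.175. Btg2, an antiproliferative gene that speeds messenger RNA decay, fell from 256 to 129 CPM (-0.99 ± 0.0654, adjusted p = 1.1e-06) and stood at 110 CPM in MitoPositive cells.

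Of 17 death genes 10 rose and 1, the caspase gene Casp6, fell from monoculture to MitoNegative (64.7% called, against 38.9% of all genes). From monoculture to MitoPositive 11 rose and 1 fell (70.6%, against 42.2%). Pmaip1, which encodes the BH3 protein Noxa, rose from 13.2 to 32.8 CPM (1.32 ± 0.0771) and was at 37.4 CPM in MitoPositive cells. Perp, a membrane protein of cell death, rose by 1.30 ± 0.146 and Aen, an apoptosis nuclease, by 1.01 ± 0.0872. Fas, the receptor for Fas ligand, rose from 23.2 to 41.9 CPM (0.85 ± 0.0526) and was at 43.0 CPM in MitoPositive cells, a log2 difference of 0.04 ± 0.0517 between the sorted groups. Pidd1, which nucleates a caspase complex, rose by 0.93 ± 0.179 from monoculture to MitoPositive.

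The repair genes went both ways, with 3 rising and 5 falling of 10 from monoculture to MitoNegative. So 80% were called, against 38.9% of all genes (20.6% higher, 18.3% lower). From monoculture to MitoPositive 3 rose and 4 fell (70%, against 42.2%). Mgmt, which removes alkyl groups from guanine, rose from 1.25 to 5.18 CPM (2.05 ± 0.232) and was at 9.93 CPM in MitoPositive cells. Ercc5, a nuclease of excision repair, rose by 0.70 ± 0.0905 and the translesion polymerase gene Polk by 0.66 ± 0.0919. Ddb2, the ultraviolet damage sensor, fell by 0.67 on the log2 scale (SE 0.101).

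Metabolic and redox targets gave 7 rises and 4 falls of 15 from monoculture to MitoNegative. So 73.3% were called, against 38.9% of all genes (20.6% higher, 18.3% lower). Ak1, which encodes an adenylate kinase, had 4 counts in all monoculture libraries, and the summed counts gave a ratio of 123 for MitoNegative (95% exact interval 47.9 to 454) and 224 for MitoPositive (87.2 to 823), intervals of counting error only. Without monoculture D, which held 3 of the 4 counts, the fitted log2 differences of Ak1 went from 6.83 to 8.07 and from 7.71 to 8.96. The thiamine transporter gene Slc19a2 rose by 1.09 ± 0.0804. Sesn1, a sestrin that restrains the growth kinase mTORC1 and a well known p53 target, fell from 128 to 44.0 CPM (-1.54 ± 0.0711, adjusted p = 1.1e-07). The epoxide hydrolase gene Ephx1 fell by 0.82 on the log2 scale (SE 0.0995).

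Of 10 feedback genes 6 rose and 1, Foxo3, fell in both comparisons with monoculture. So 70% were called in each, against 38.9% of all genes to MitoNegative and 42.2% to MitoPositive. From monoculture to MitoNegative Zfp385a rose by 2.99 ± 0.293 and Zfp365 by 2.38 ± 0.126. Ppm1d, which encodes the phosphatase Wip1 that switches off p53 signalling, rose by 0.35 ± 0.0687 to MitoNegative and by 0.23 ± 0.0688 to MitoPositive. The latter call of Ppm1d was lost without MitoPositive C (adjusted p = 0.0779) and without monoculture C (adjusted p = 0.0654), both by edgeR's test.

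Between the sorted groups the 8 further targets called with the letter as a block (edgeR's quasi-likelihood test) came from several roles. They were Trp53cor1 (0.76 ± 0.134, adjusted p = 0.0209), Plk2 (0.55 ± 0.0957, adjusted p = 0.0193) and Psrc1 (0.52 ± 0.0707, adjusted p = 0.0082) of the arrest list. Perp (0.37 ± 0.0707, adjusted p = 0.0244) and the ribosomal protein paralogue Rps27l (0.36 ± 0.0618, adjusted p = 0.0193) belong to the death list. Mgmt (0.95 ± 0.126, adjusted p = 0.00731), Slc19a2 (0.36 ± 0.0692, adjusted p = 0.0253) and Ak1 (0.90 ± 0.180, adjusted p = 0.0313) were the others. None of the 8 passed in the fit by group, and each was higher in MitoPositive.

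**Figure D4:**
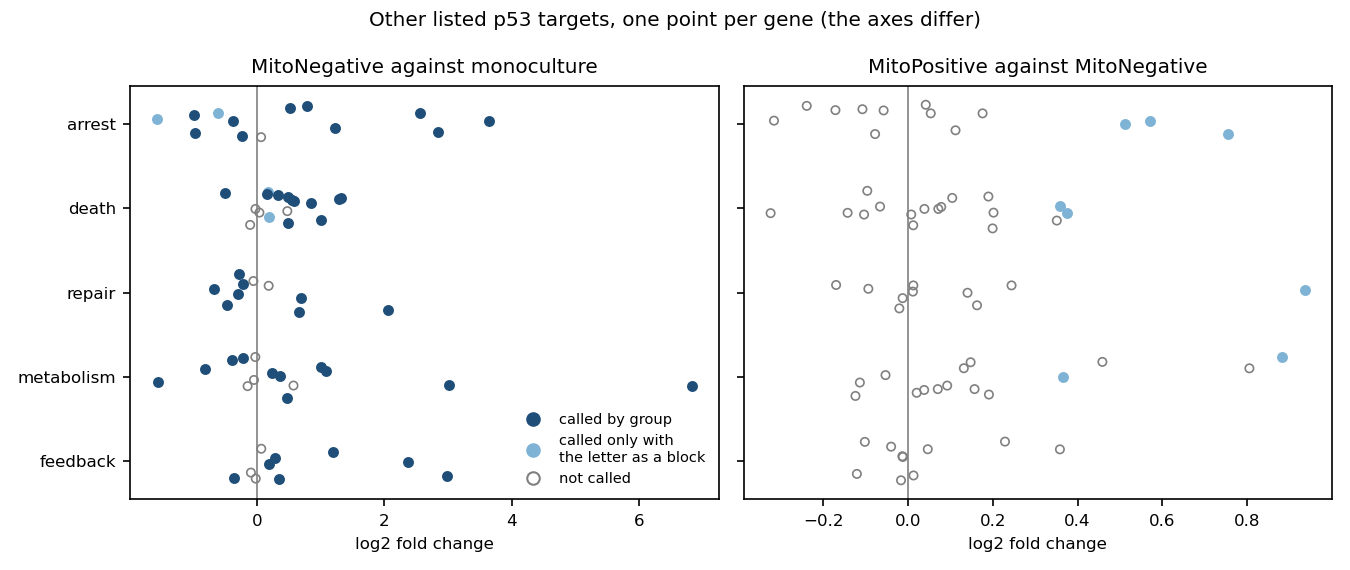
Log2 fold change by group of the 65 other p53 targets, one point per gene in rows by role, for MitoNegative against monoculture, left, and MitoPositive against MitoNegative, right (the axes differ; vertical position within a row is only to separate points). Dark points passed an adjusted p of 0.05 by group, pale points only with the letter as a block, and open points in neither; on the right 8 pale points lie above 0 and no dark point is present.

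The gene of p53 itself, Trp53, was lower in co-culture, at 115 ± 9.43 CPM in monoculture, 97.1 ± 2.85 CPM in MitoNegative cells and 96.5 ± 3.69 CPM in MitoPositive ones. It fell by 0.25 on the log2 scale in both comparisons with monoculture (adjusted p = 0.011 and 0.00825, edgeR's quasi-likelihood test), and the sorted groups differed by -0.01 ± 0.0655. Of 18 tested regulators of p53, 1 rose and 4 fell from monoculture to MitoNegative, so 27.8% were called against 38.9% of all genes. Those that fell were Trp53, the deubiquitinase gene Usp7 (-0.28 ± 0.063) and the acetyltransferase genes Ep300 (-0.24 ± 0.057) and Crebbp (-0.19 ± 0.0491). The histone chaperone gene Daxx rose by 0.74 ± 0.199, a call that was lost without monoculture B, C or D in turn (adjusted p = 0.0594, 0.0649 and 0.0508). Mdm4, the partner of Mdm2 that masks p53, was at 151 ± 36.0, 180 ± 24.5 and 187 ± 13.2 CPM in monoculture, MitoNegative and MitoPositive cells and passed in no comparison. These are transcript levels, and the amount of p53 protein was not measured here.

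Relatives of the chosen genes did not share 1 direction. Cdkn1b, which encodes p27, a close relative of p21, fell from 339 ± 59.8 CPM in monoculture to 247 ± 11.4 CPM in MitoNegative cells (-0.46 ± 0.105, adjusted p = 0.00508 by edgeR's test) and was at 219.5 ± 7.35 CPM in MitoPositive cells. Per kilobase of exon Cdkn1b stood at 74.4, 54.3 and 48.2 CPM where Cdkn1a stood at 1.31, 30.5 and 52.7, and in MitoPositive cells the gap between these means was within the SD of Cdkn1a (6.43). Cdkn2c, an inhibitor of another family, fell by 1.30 on the log2 scale (SE 0.223). Both relatives of Gadd45a rose from monoculture to MitoNegative, Gadd45g by 2.54 ± 0.243 and Gadd45b by 1.37 ± 0.145. Between the sorted groups Gadd45g differed by 0.30 ± 0.221 and Gadd45b by -0.20 ± 0.14, and neither passed. Trp53inp2, the relative of Trp53inp1, rose by 0.91 ± 0.119 from monoculture to MitoNegative. In all, 6 of 14 tested relatives rose and 3 fell in that comparison (64.3% called, against 38.9% of all genes).

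Genes of cyclins, kinases and other cell cycle factors were also counted, and p21 does not act directly on all of them. From monoculture to MitoNegative 5 of 24 rose and 2 fell, 29.2% called against 38.9% of all genes. With the letter as a block 6 rose and 12 fell, 75% against 44.9%. The cyclin genes Ccnd2 (0.79 ± 0.0944) and Ccnd3 (0.72 ± 0.083) and the kinase gene Cdk6 (0.52 ± 0.0815) rose, while Cdk2 (-0.62 ± 0.122) and E2f2 (-0.94 ± 0.209) fell. From monoculture to MitoPositive 7 rose and 2 fell (37.5%, against 42.2%), or 7 and 12 with the block (79.2%, against 47.8%). Between the sorted groups 0 of 24 passed by group, against 0.165% of all genes. With the block Cdk6 (0.36) and Ccnd3 (0.39) were higher and E2f2 (-0.25) lower in MitoPositive, 12.5% called against 2.34% of all genes.

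Total counts per library lay between 53546152 and 74722832. None of the 8 CD8+ T-cell markers was at 0 in any group, and their summed level was 7410 to 8260 CPM in monoculture, 6680 to 6960 CPM in MitoNegative and 6750 to 7130 CPM in MitoPositive cells. Stromal markers were summed without Thy1, which T cells express. The other 14 summed to 0.738, 1.13 and 1.11 CPM in monoculture, 30.9, 31.9 and 11.4 CPM in MitoNegative cells and 26.9, 30.8 and 11.6 CPM in MitoPositive cells, with 8 of 14 at 0 in monoculture. In the co-cultured libraries letter D thus held less stromal RNA than B and C in both groups. In letters B, C and D Cdkn1a was 107.4, 107.5 and 110.5 CPM in MitoNegative, where D was the highest. In MitoPositive it was 194, 206 and 162 CPM, where D was the lowest and C the highest, as in the stromal sums of that group. Markers of B cells summed to 677 to 750, 366 to 459 and 277 to 308 CPM in monoculture, MitoNegative and MitoPositive cells, so by these sums the groups ranked in the opposite order to that of the p53 targets. Markers of natural killer cells summed to 15.1 to 24.1, 11.3 to 17.0 and 7.93 to 9.75 CPM, those of CD4+ T cells to 50.8 to 54.0, 45.3 to 47.8 and 49.2 to 59.5 CPM, and those of myeloid cells to 3.98 to 5.17, 5.00 to 8.42 and 6.10 to 7.39 CPM. The part of these other cells in the levels of the p53 targets was not tested.

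**Figure D5:**
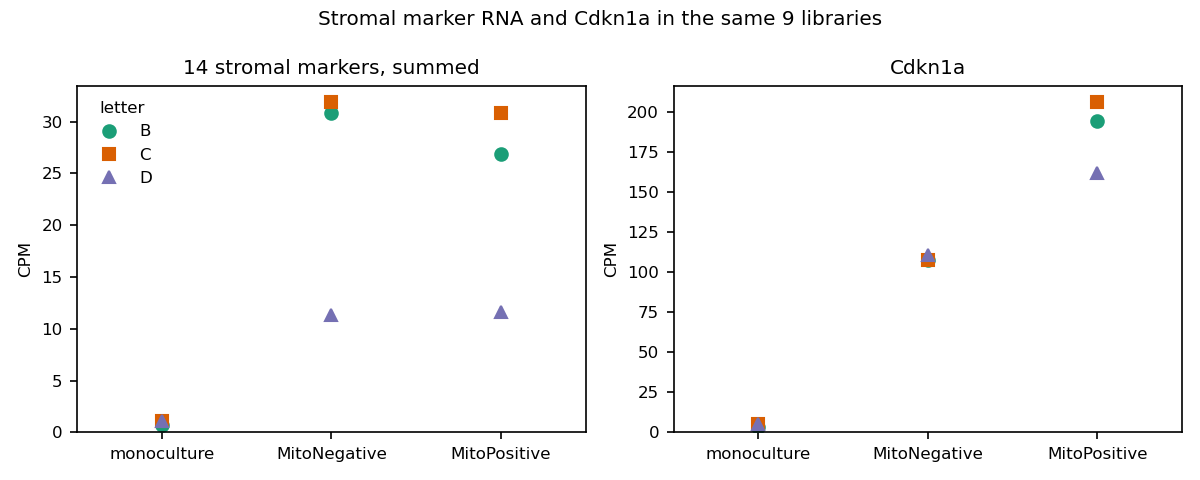
Summed CPM of 14 stromal markers, left, and CPM of Cdkn1a, right, in the same 9 libraries by group and letter (linear axes from 0). Letter D is the lowest in stromal RNA in both co-cultured groups (11.4 and 11.6 CPM), and its Cdkn1a level is the highest of the MitoNegative libraries (110.5 CPM) and the lowest of the MitoPositive ones (162 CPM).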

How the data were processed

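The deposited files hold raw counts per gene of 9 libraries, whole numbers that the authors did not normalise; a deposited subset with identical values was not used further. Per the submitters' processing notes, bcl2fastq, cutadapt, STAR 2.7, featureCounts, DESeq2 and GRCm38 were used; the annotation release and strandedness are not given in the sources used here. Deposited gene coordinates and exon lengths equal those of GENCODE M21 for all 54673 identifiers found there. The 99 spike-in entries held 0 counts.

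The analysis ran in edgeR 4.0.16 under R 4.3.3: filterByExpr (minimum count 10, minimum total 15) kept 15711 genes, library sizes were scaled by TMM, and robust quasi-likelihood fits by group over 9 libraries left 6 residual degrees of freedom. P-values were adjusted by Benjamini-Hochberg over all genes tested, with a threshold of 0.05. Each SE of a log2 difference was derived from the test, as the absolute difference divided by the square root of the quasi-likelihood F statistic. The fit was tested on simulated counts drawn without a letter effect, so that test says nothing about pairing by letter. Same-letter residuals correlated at 0.402, 0.339 and 0.459 (B, C and D) between MitoPositive and MitoNegative and at 0.213, 0.153 and 0.111 between MitoNegative and monoculture. All of these were above a threshold of 0.1, so the letters may pair libraries in both comparisons. Between MitoPositive and monoculture same-letter residuals correlated at 0.248, 0.0521 and 0.163, where letter C fell short of it. Residuals of different letters were not compared. A letter block leaves 4 degrees of freedom.

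The 10 genes and the lists (arrest, death, repair, metabolism, feedback, regulators, relatives, cell cycle genes and cell type markers) were chosen with earlier results of these data known. Of each list, up to 4 genes per comparison were named, by largest change among those called with a mean log2 CPM of at least 1; Trp53, Mdm4 and Cdkn1b were named whatever their values, as were 5 genes most like Cdkn1a. Genes called with the block, Btg2, Casp6 and Tnfsf10 were named after their values were seen. Alternatives were DESeq2 1.42.0, limma 3.58.1 voom, other scalings, no filter, the block, and leaving out each library.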

Additional observations from a re-analysis of the deposited data

How the results depend on the processing

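The count of ordered genes was 8 under CPM of total counts, under DESeq2's size factors and without each letter. The order was found in 11.8% of all genes with total counts and in 9.94% with DESeq2's size factors. Without letter B, C or D it was found in 13.4%, 12.7% and 15.7%, since an order over fewer letters is easier to meet. Of the 10 chosen genes, 9 were called higher from monoculture to MitoNegative and 8 from monoculture to MitoPositive in every alternative run and without each library in turn. Of all genes 38.9% and 42.2% were called in these comparisons by group, and 44.9% and 47.8% with the block. The 10 genes were chosen for this pattern, so nothing is read from these counts. Between MitoPositive and MitoNegative the count of 3 became 2 with DESeq2's size factors in edgeR (Cdkn1a at an adjusted p of 0.05002), 6 with no filter, 6 with DESeq2 (and 1 lower), 6 with the replicate block and 8 in the 2 groups alone with the block (and 1 lower, Gadd45a). It ranged from 0 to 4 when libraries were left out. Same-letter residuals correlated above 0.1 in that comparison, but the labels do not say what the letters are. The fit by group and the fit with the block are therefore both given. Calls over all genes moved with the settings too. By group 14 were higher and 12 lower, against 10 and 5 with DESeq2's size factors in edgeR. They were 10 and 4 with total counts as the scale, and 25 and 8 with limma voom. The block gave 198 and 169, no filter 105 and 66 of 27689, and DESeq2 245 and 173. The 2 groups alone with the block gave 1530 and 1280 of 15431. Leaving out libraries gave 0 to 68 higher and 1 to 53 lower. The count of 0 other targets became 1 with total counts as the scale, 4 with no filter, 7 with DESeq2 (and 1 lower), 1 with limma voom, 8 with the replicate block and 21 in the 2 groups alone with the block (and 6 lower), and ranged from 0 to 4 when libraries were left out. Without libraries in turn, 26 to 30 other targets were higher from monoculture to MitoNegative, as were 2757 to 3364 of all genes. From monoculture to MitoPositive 28 to 33 were higher, as were 2951 to 3689 of all genes. These runs tested 15962 to 16088 genes. With the block 34 other targets (52.3%) were higher and 17 (26.2%) lower to MitoNegative, against 23.5% and 21.5% of all genes. Among them were 6 and 6 arrest genes and 12 and 1 death genes. To MitoPositive 34 (52.3%) were higher and 16 (24.6%) lower, against 24.8% and 23% of all genes. Of 109 single-gene results, 86 were past the threshold and 5 of these lost their call at least once: Cdkn1a, Phlda3 and Zmat3 between the sorted groups, Ppm1d from monoculture to MitoPositive and Daxx from monoculture to MitoNegative. Signs turned for 5 results, none of them called. Trp53inp1 from monoculture to MitoPositive was 0.016 with total counts, 0.0064 with no filter and 0.003 in the 2 groups alone with the block, and -0.073 to 0.0208 when libraries were left out. Without libraries in turn it was -0.0165 to 0.0517 between the sorted groups and -0.0937 to 0.0148 from monoculture to MitoNegative. Trp53 between the sorted groups was 0.0076 with total counts, 0.0049 with no filter and -0.0405 to 0.0196 without libraries in turn, and Mdm4 -0.0162 to 0.1685. The cause of these changes was not tested. Eda2r and Ak1 held 3 and 4 counts in monoculture, so their folds from it are imprecise.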
